A study of Mus musculus with 4 samples.

Results

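Cytochrome P450 enzymes are haem-containing monooxygenases. In the liver they oxidise drugs, toxins, steroids, fatty acids and bile acid precursors, and hepatocytes are their main site. Many of the genes arose by tandem duplication, so that close relatives lie next to each other in the genome, often with overlapping substrates. The genes described here are the P450 genes named by 1 digit for the family, 1 letter for the subfamily and a number for the gene, such as Cyp3a11. All autosomal protein-coding genes of GENCODE release M21 with such a symbol were taken, which gave 83 of 20807 genes. Of these, 69 lie in 7 clusters, in which neighbouring members are at most 500 kb apart and at least 3 members follow each other. A further 2, Cyp1a1 and Cyp1a2, form a pair, and 12 are single genes.

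The study grew AML12 cells, an immortalized mouse hepatocyte line, as flat 2D cultures or as 3D cultures embedded in Matrigel, and mapped chromatin contacts by in situ Hi-C with the enzyme MboI, which cuts at GATC. Each culture had 2 samples, 4 in all, and the question here is where P450 genes lie in the topologically associating domains (TADs) of the cells in each culture. All cells were arrested at the G1/S boundary with 1 mM hydroxyurea. The exposure lasted 24 h in the 2D cultures and 36 h in those grown in Matrigel, so culture and length of exposure cannot be told apart. The authors combined the samples of a culture before calling TADs. There is therefore 1 list of TADs per culture, with 4467 TADs in 2D and 4355 in 3D, no spread between replicates and no test. The lists hold positions on a grid of 40 kb bins (mm10) without reads or scores, and the depth of any TAD is therefore unknown. They also hold no expression, and the hepatocyte label of this single cell line was not checked against marker genes here. Every difference given between 2D and 3D is one between these 2 lists.

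A gene was placed by its start, the 5′ end of its annotated gene. Where a start lies between called TADs, the stretch around it is called unassigned. A TAD has a counterpart where both of its ends lie within 40 kb, which is 1 bin, of the ends of a TAD in the other list. The counterpart need not hold the same gene starts. Shares of genes with a counterpart count genes outside any TAD as without one. Shares carry a 95% Wilson interval for counting error, which is too narrow for P450 genes because neighbours share a TAD. The 70 P450 starts assigned in 2D fell into 16 TADs, and the 72 assigned in 3D into 21.

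P450 starts lay in a TAD about as often as those of all genes, and by gene their TADs were larger than those of most genes. In 2D, 70 of 83 starts (84.3%, 75.0 to 90.6) lay in a TAD, against 77.3% of all autosomal protein-coding genes. In 3D, 72 of 83 (86.7%, 77.8 to 92.4) did so, against 84.1% of all genes. The median TAD around a P450 gene measured 1320 kb in 2D (range 120 to 2360) and 800 kb in 3D (120 to 2880). Over all genes it measured 320 kb in both lists. Counted once per TAD, P450 TADs had a median of 640 kb (2D) and 480 kb (3D), since several of the large ones hold many members. Over all 83 members, the median distance to the nearest border came to 131 kb (2D) and 139 kb (3D), against 52.9 and 58.1 kb over all genes. Within 40 kb of a border lay 18 P450 starts in 2D (21.7%, 14.2 to 31.7), against 41.6% of all genes, and 12 in 3D (14.5%, 8.47 to 23.6), against 38.9%. Of the clustered genes, 13 of 69 (18.8%) in 2D and 9 (13.0%) in 3D lay that near, with median distances of 190 and 156 kb. The clusters differed in this, since Cyp2d and Cyp4f held 10 of the 13 in 2D, 5 of 8 each (62.5%), at median distances of 35.4 and 28.1 kb. Cyp2j, Cyp3a and Cyp2c had 0 in 2D. In 3D the contrast was smaller, with 3 of 8 (37.5%) for Cyp2d and 2 of 8 (25.0%) for Cyp4f, at medians of 93.4 and 75.0 kb, and 3 of 13 (23.1%) for Cyp2a/2b. The median distance was instead lower in 3D for Cyp3a (460 kb in 2D, 188 kb in 3D) and Cyp2c (298 and 192 kb). Of the single genes, 5 of 12 (41.7%) in 2D and 3 (25.0%) in 3D lay within 40 kb, at median distances of 61.2 and 83.5 kb. Within 80 kb lay 41.0% of P450 starts in 2D (63.8% of all genes) and 27.7% in 3D (60.4%). Within 40 kb of a position where 2 TADs meet lay 8.43% in 2D (18.5% of all genes) and 9.64% in 3D (21.6%).

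**Figure D1:**
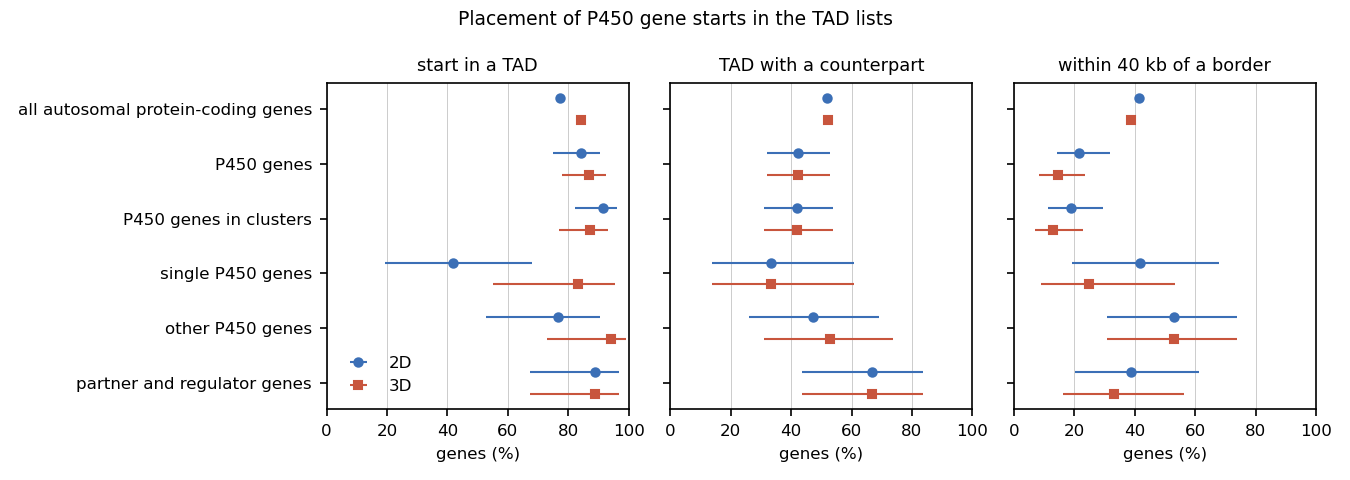
Share of genes in percent (x axis) whose start lies in a TAD, whose TAD has a counterpart in the other list, or whose start lies within 40 kb of a border, in 2D (blue circles) and 3D (red squares). Lines are 95% Wilson intervals. Single P450 genes are at 41.7% in a TAD in 2D and at 83.3% in 3D, while P450 genes in clusters are at 91.3% and 87.0%. Over all genes these shares are 77.3% and 84.1%.

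Between the lists, 65 P450 starts (78.3%) lay in a TAD in both, against 73.6% of all genes, and 6 (7.23%) in neither, against 12.2%. A start in a TAD in 2D only was found for 5 members (6.02%, background 3.73%), all in clusters. These were Cyp2c55, Cyp2c65, Cyp2c66, Cyp2c29 and Cyp3a57. A start in a TAD in 3D only was found for 7 members (8.43%, background 10.5%), of which Cyp4f40 and Cyp4f15 belong to a cluster and Cyp3a13, Cyp2w1, Cyp4v3, Cyp4f18 and Cyp2c23 are single genes. The TAD around the start had a counterpart for 35 of 83 members in each list (42.2%, 32.1 to 52.9), against 52.0% of all genes in 2D and 52.3% in 3D. Identical ends were found for 12 (14.5%), against 35.7% of all genes in each list. This share is by gene and rests on few TADs. All 10 Cyp4a and all 13 Cyp2a/2b members had a counterpart, but 0 and 1 of them had identical ends. Identical ends were not counted once per TAD. Counted once per TAD, 10 of 16 P450 TADs of 2D (62.5%, 38.6 to 81.5) and 11 of 21 of 3D (52.4%, 32.4 to 71.7) had a counterpart. The same share over all autosomal TADs with a protein-coding start was 68.3% and 69.4%, inside both intervals. The share per gene depends on the rule for a counterpart, since a reciprocal overlap of 50% gave 78.3% in 2D, against 68.6% of all genes by the same rule, and 74.7% in 3D, against 72.6%.

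A lower share of single genes than of clustered genes lay in a TAD in the 2D list. Of the 69 clustered members, 63 starts (91.3%, 82.3 to 96.0) were in a TAD in 2D and 60 (87.0%, 77.0 to 93.0) in 3D. Of the 12 single genes, 5 starts (41.7%, 19.3 to 68.0) were in a TAD in 2D and 10 (83.3%, 55.2 to 95.3) in 3D. Over all genes the share was 77.3% in 2D and 84.1% in 3D, so in 3D both classes lay near it. The 63 clustered starts of 2D share 10 TADs, so genes are not independent here and the difference was not tested. A counterpart was found for 29 of the 69 clustered members (42.0%, 31.1 to 53.8) and for 4 of the 12 single genes (33.3%, 13.8 to 60.9) in each list. The shares over all genes, 52.0% in 2D and 52.3% in 3D, were higher but inside both intervals. The difference, 8.70 percentage points, has a 95% interval of -21.0 to 31.5 (Newcombe, from the Wilson bounds). It counts members outside any TAD as without a counterpart. Of members in a TAD in 2D, 29 of 63 clustered and 4 of 5 single genes had one, so the order turned. In 3D it was 29 of 60 clustered and 4 of 10 single genes. The sign and size of the difference also depend on the rule for a counterpart. With identical ends it was -14.9 points (-43.6 to 3.77) in both lists. With a reciprocal overlap of 50% it was 52.2 points (22.8 to 72.7) in 2D and 28.3 points (1.26 to 54.2) in 3D. Under any rule the share of single genes could not exceed 41.7% in 2D, the share in a TAD. These differences therefore mix placement in a TAD with the matching of TADs, and neither was tested apart from the other.

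**Figure D2:**
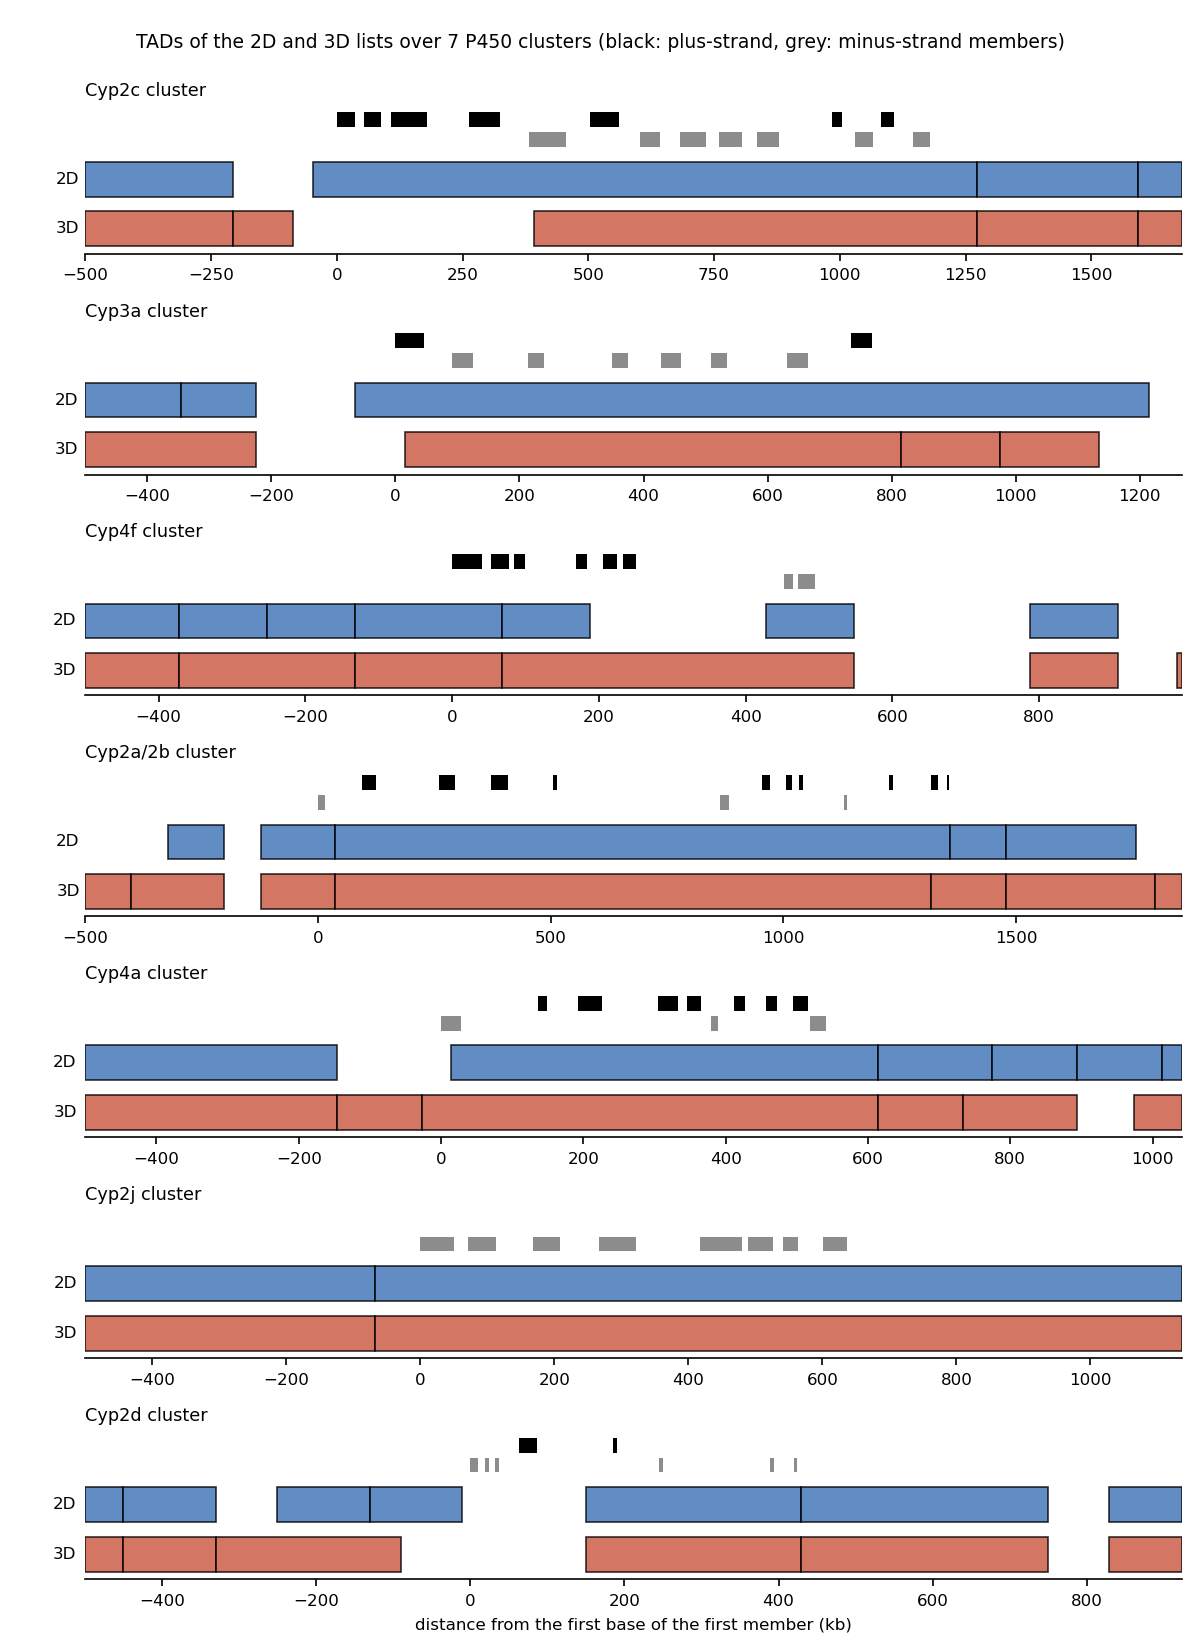
Maps of the 7 P450 clusters, with distance from the first base of the first member in kb on the x axis, members as black (plus strand) or grey (minus strand) blocks, and TADs of the 2D (blue) and 3D (red) lists as bars; white gaps are unassigned. The Cyp2c and Cyp3a clusters lie under 1 TAD in 2D and reach into an unassigned stretch in 3D, while the Cyp4f cluster lies under 3 TADs and a gap in 2D and 2 TADs in 3D.

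The promoters of neighbours on both sides of a border that only 1 list has inside a cluster are shown first, for 1 such border per cluster, because the cluster results turn on these positions. The sequences are RefSeq promoters of GRCm38.p6, the build that mm10 names, from 250 bases before to 50 bases after the RefSeq start, 5′ to 3′ on the gene's strand. Capitals mark matches to TATAAA, CAAAGTCCA or TTGCNNAA. The pairs are Cyp2c29 and Cyp2c38 (chr19:39286835-39287134, plus strand, and chr19:39463026-39463325, minus strand), Cyp3a57 and Cyp3a16 (chr5:145345019-145345318, plus, and chr5:145469674-145469973, minus), Cyp2f2 and Cyp2t4 (chr7:27119705-27120004 and chr7:27153464-27153763, both plus) and Cyp4f37 and Cyp4f40 (chr17:32621069-32621368 and chr17:32658636-32658935, both plus).
Cyp2c29: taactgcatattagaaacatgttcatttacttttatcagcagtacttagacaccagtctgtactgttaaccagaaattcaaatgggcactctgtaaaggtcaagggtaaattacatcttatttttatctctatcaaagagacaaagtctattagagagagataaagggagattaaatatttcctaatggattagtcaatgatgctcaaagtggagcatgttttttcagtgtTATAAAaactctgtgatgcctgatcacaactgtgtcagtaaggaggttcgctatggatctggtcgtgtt
Cyp2c38: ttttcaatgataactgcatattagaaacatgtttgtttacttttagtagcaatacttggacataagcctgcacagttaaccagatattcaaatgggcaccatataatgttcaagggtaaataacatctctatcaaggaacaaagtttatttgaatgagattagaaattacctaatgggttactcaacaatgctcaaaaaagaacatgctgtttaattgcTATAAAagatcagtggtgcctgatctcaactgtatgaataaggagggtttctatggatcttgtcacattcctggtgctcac
Cyp3a57: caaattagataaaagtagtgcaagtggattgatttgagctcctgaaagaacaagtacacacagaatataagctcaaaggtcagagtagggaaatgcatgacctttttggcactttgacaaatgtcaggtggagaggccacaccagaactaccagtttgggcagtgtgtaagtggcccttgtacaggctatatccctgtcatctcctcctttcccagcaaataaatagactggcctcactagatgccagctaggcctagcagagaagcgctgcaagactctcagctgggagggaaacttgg
Cyp3a16: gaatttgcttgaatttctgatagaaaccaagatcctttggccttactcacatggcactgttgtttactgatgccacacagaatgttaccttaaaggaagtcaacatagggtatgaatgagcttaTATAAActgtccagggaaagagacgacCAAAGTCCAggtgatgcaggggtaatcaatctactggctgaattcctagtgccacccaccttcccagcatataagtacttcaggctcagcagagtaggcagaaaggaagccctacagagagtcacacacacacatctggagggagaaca
Cyp2f2: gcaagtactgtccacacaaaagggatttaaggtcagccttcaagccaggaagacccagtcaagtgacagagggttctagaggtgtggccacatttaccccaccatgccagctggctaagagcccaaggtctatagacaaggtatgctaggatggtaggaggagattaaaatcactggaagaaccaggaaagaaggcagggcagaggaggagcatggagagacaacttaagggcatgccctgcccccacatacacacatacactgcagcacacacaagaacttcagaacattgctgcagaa
Cyp2t4: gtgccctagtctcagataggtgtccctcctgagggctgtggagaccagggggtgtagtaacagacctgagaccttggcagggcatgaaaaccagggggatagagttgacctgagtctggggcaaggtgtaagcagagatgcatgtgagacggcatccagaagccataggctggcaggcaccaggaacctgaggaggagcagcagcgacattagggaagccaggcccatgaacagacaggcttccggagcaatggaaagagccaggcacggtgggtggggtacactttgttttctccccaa
Cyp4f37: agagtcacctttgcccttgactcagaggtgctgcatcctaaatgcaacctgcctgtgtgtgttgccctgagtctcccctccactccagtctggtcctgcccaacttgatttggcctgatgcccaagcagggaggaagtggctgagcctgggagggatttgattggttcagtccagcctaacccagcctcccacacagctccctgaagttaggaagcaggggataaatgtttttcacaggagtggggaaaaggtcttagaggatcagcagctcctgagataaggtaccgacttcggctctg
Cyp4f40: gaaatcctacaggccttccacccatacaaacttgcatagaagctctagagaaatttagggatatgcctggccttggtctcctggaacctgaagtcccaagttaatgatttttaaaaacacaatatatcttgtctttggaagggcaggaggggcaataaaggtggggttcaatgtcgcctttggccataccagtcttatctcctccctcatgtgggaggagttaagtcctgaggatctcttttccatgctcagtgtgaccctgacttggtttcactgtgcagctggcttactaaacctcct

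TATAAA is the core of the TATA box, CAAAGTCCA a site of the liver factor HNF4 and TTGCNNAA a form of the C/EBP site. All motifs were searched on both strands and at any position of the same 300 bases, so a match to TATAAA need not be a TATA box. A RefSeq promoter was matched for 66 of the 83 members. TATAAA was found in 30 of them (45.5%), against 12.9% of all 15686 promoters. TTGCNNAA was found in 15 (22.7%), against 10.1%. CAAAGTCCA was found in 11 (16.7%), against 0.459% of all promoters, which is 72 promoters. The 11 are Cyp3a16, Cyp3a41b, Cyp3a41a, Cyp3a11, Cyp8b1, Cyp2c65, Cyp2c67, Cyp2c68, Cyp2c40, Cyp2c69 and Cyp2c70. Paralogs share sequence by descent, so these counts are not independent. The MboI site GATC was in 41 (62.1%), against 45.9%. Among the printed pairs, CAAAGTCCA and TATAAA stand in the promoter of Cyp3a16 and neither in that of Cyp3a57. Both Cyp2c29 and Cyp2c38 hold a TATAAA. The RefSeq start of Cyp2c29 lies 17680 bases from its GENCODE start, and both are in the same stretch of each list.

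The Cyp2c cluster, whose enzymes oxidise drugs and arachidonic acid, lay whole in 1 TAD in 2D and partly outside any TAD in 3D. It holds 14 genes over 1180 kb of chromosome 19 (chr19:39007019-40187333), with no other protein-coding gene inside. In 2D, all 14 starts lay in a TAD of 1320 kb (chr19:38960001-40280000) that holds 15 protein-coding starts, Pdlim1 being the other. In 3D, 10 starts lay in a TAD of 880 kb (chr19:39400001-40280000). The other 4, Cyp2c55, Cyp2c65, Cyp2c66 and Cyp2c29, lay in an unassigned stretch of 480 kb (chr19:38920001-39400000) together with Hells. The left part of the cluster was thus in a TAD in 2D only. The 3D border is an edge of the unassigned stretch, and where only positions at which 2 TADs meet were counted, 0 borders lay inside the cluster in 3D. The right end, beyond Cyp2c70, an enzyme of muricholic acid synthesis, was the same in both lists.

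The 3D border at 39400000 has its nearest 2D border 440 kb away. It falls within the body of Cyp2c38, 63.1 kb from its start, and Cyp2c29 starts 131 kb to the left of it. The promoters of both genes are printed above. Cyp2c29, an abundant hepatic drug-metabolising enzyme, shares 89.2% of its coding bases with Cyp2c38 and 89.5% with Cyp2c39, so the 3D border separates close relatives. Over the cluster, pairs of coding sequences shared a median of 77.0% (66.5 to 97.7, 91 pairs). Pairs inside the 3D TAD shared a median of 79.4% (45 pairs), and the other pairs 76.4% (46 pairs). The closest pair, Cyp2c67 and Cyp2c69, was inside the TAD in both lists.

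The Cyp3a cluster, which holds the main steroid- and drug-oxidising P450s of the liver, was also undivided in 2D, and in 3D left its first gene outside the TAD. It holds 8 genes over 768 kb (chr5:145345279-146113287) and no other protein-coding gene. In 2D, all 8 starts lay in a TAD of 1280 kb (chr5:145280001-146560000) with 14 further genes, among them Cdk8, a kinase of the Mediator complex. In 3D, 7 starts, from Cyp3a16 to Cyp3a59, lay in a TAD of 800 kb (chr5:145360001-146160000) that holds no other protein-coding start. Cyp3a11, the principal inducible Cyp3a of mouse liver, was 600 kb from the nearest border in 2D and 280 kb in 3D. The right end of the TAD moved too, since the 3D border at 146160000 has its nearest 2D border 400 kb away. Cyp3a57 alone was outside, in an unassigned stretch of 240 kb (chr5:145120001-145360000) with 9 other genes. Its start lay 14.7 kb from the 3D border, which falls within its body, and the nearest 2D border is 80 kb from that border. This border too is an edge of the unassigned stretch, and 0 positions where 2 TADs meet lay inside the cluster in 3D.

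By sequence, Cyp3a57 is close to 2 members and distant from the other 5. It shares 93.9% of coding bases with Cyp3a25 and 94.2% with Cyp3a59, at the far end of the cluster, but 75.9% with its neighbour Cyp3a16. The pairs inside the 3D TAD shared a median of 92.5% (21 pairs), and the pairs with Cyp3a57 shared 76.4% (7 pairs). Cyp3a41a and Cyp3a41b differ at almost no base (99.9%).

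The Cyp4f cluster, whose enzymes oxidise leukotrienes and long-chain fatty acids, lay in more TADs in 2D than in 3D, 3 against 2. It holds 8 genes over 495 kb (chr17:32452723-32947402), with 4 other protein-coding genes inside. In both lists Cyp4f39 and Cyp4f17 lay in a TAD of 200 kb with identical ends (chr17:32320001-32520000). In 2D, Cyp4f16 and Cyp4f37 lay in a TAD of 120 kb with no other protein-coding start (chr17:32520001-32640000). Cyp4f40 and Cyp4f15 were unassigned over 240 kb (chr17:32640001-32880000). Cyp4f14 and Cyp4f13 lay in a further TAD of 120 kb (chr17:32880001-33000000). In 3D, these 6 genes lay in 1 TAD of 480 kb (chr17:32520001-33000000) with 6 zinc finger genes. The share of the cluster's length inside TADs was 51.5% in 2D and 100% in 3D. The 2 borders particular to the 2D list, at 32640000 and 32880000, were each 120 kb from the nearest 3D border. Both are edges of the unassigned stretch, and where only positions at which 2 TADs meet were counted, 1 border remained inside the cluster in each list. With members at most 200 kb apart the cluster ends before Cyp4f14 and Cyp4f13, and of its 6 remaining members 4 lay in 2 TADs in 2D and all 6 in 2 TADs in 3D. When TADs under 200 kb were dropped, 1 was left in 2D against 2 in 3D. The border at 32520000, in both lists, falls within Cyp4f17.

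The Cyp2a/2b cluster showed a shift by 1 bin at its right end. It is the longest cluster, with 13 genes over 1356 kb (chr7:25802475-27158668) and 6 other protein-coding genes inside. Cyp2s1 lay in a TAD of 160 kb with identical ends in both lists (chr7:25680001-25840000), which also holds Tgfb1 and Axl. In 2D, the other 12 starts lay in a TAD of 1320 kb (chr7:25840001-27160000). In 3D, 11 lay in a TAD of 1280 kb (chr7:25840001-27120000) and Cyp2t4 in the next, of 160 kb (chr7:27120001-27280000), with 9 other genes. Cyp2b10, the classical target of the receptor CAR, lay 57.6 kb inside the left border in both lists. Cyp2a4 and Cyp2a5, hydroxylases of testosterone and coumarin, share 98.4% of coding bases and shared a TAD in both lists. Cyp2f2, known for naphthalene activation in lung, started 40.1 kb from the nearest border in 2D and 0.0920 kb from it in 3D. The 3D border at 27120000 lies within the promoter window of Cyp2f2 printed above. Since the grid is 40 kb wide, the border is not placed more finely than 1 bin. The TADs of all 13 members had a counterpart in the other list. For Cyp2t4 that counterpart does not hold its start, since the gene changed TAD between the lists.

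The Cyp4a and Cyp2j clusters were undivided in both lists. The Cyp4a cluster, of fatty acid hydroxylases and targets of the receptor PPARα, holds 10 genes over 541 kb (chr4:115106323-115647723), Cyp4x1 and Cyp4b1 included. All 10 lay in a TAD of 600 kb in 2D (chr4:115120001-115720000), with no other protein-coding start. All 10 lay in a TAD of 640 kb in 3D (chr4:115080001-115720000), which adds Pdzk1ip1. The left border moved by 1 bin, from within the body of Cyp4x1 in 2D to beyond it in 3D. The Cyp2j cluster, of arachidonic acid epoxygenases, holds 8 genes on the minus strand over 637 kb (chr4:96027534-96664154). All 8 lay in a TAD of 1760 kb in 2D (chr4:95960001-97720000) and of 1680 kb in 3D (chr4:95960001-97640000), with Hook1, Gm12695 and Gm10192. The right ends were 80 kb apart, so by the rule used these TADs had no counterpart, although the members' neighbours were the same genes.

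The Cyp2d cluster lay partly in a TAD and partly in an unassigned stretch, with the edge at the same position in both lists. Where only positions at which 2 TADs meet were counted, 0 borders lay inside it in either list. It holds 8 genes over 424 kb (chr15:82370527-82794294), besides 9 P450 pseudogenes, the most of any cluster. Cyp2d12, Cyp2d34, Cyp2d40 and Cyp2d26 lay in a TAD of 280 kb with identical ends (chr15:82520001-82800000) and no other protein-coding start. Cyp2d22, Cyp2d11, Cyp2d10 and Cyp2d9, the last a testosterone hydroxylase, were unassigned in both. Their stretch measured 160 kb in 2D (chr15:82360001-82520000) and 240 kb in 3D (chr15:82280001-82520000), where it holds 5 more genes. The closest relatives in the cluster, Cyp2d11 and Cyp2d10 (94.7% of coding bases), were both in the unassigned stretch. In each list, pairs inside the TAD shared a median of 71.2% (6 pairs), and the other pairs 82.0% (22 pairs). This order is the reverse of that in Cyp2c and Cyp3a in 3D. In Cyp2a/2b and Cyp4f, pairs in the same TAD had the higher median in both lists. Each pair with Cyp2d40, whose longest coding sequence has 1014 bases, shared at most 60.9%.

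Over the 7 clusters, the TADs and unassigned stretches around members had 29 border positions, 21 in each list, and 13 were at the same position in both. Another 7 borders of 1 list had the other list's border 1 bin away. The remaining 5 of 2D and 4 of 3D had none within 40 kb. Inside the cluster spans lay 9 positions, of which 3 were the same in both lists, at 25840000 (Cyp2a/2b), 82520000 (Cyp2d) and 32520000 (Cyp4f). Few members were crossed by a border. In 2D these were Cyp4x1, Cyp4f17 and Cyp4f18 (3.61% of 83, against 15.0% of all genes). In 3D they were Cyp3a57, Cyp2f2, Cyp4f17 and Cyp2c38 (4.82%, against 13.9%).

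**Figure D3:**
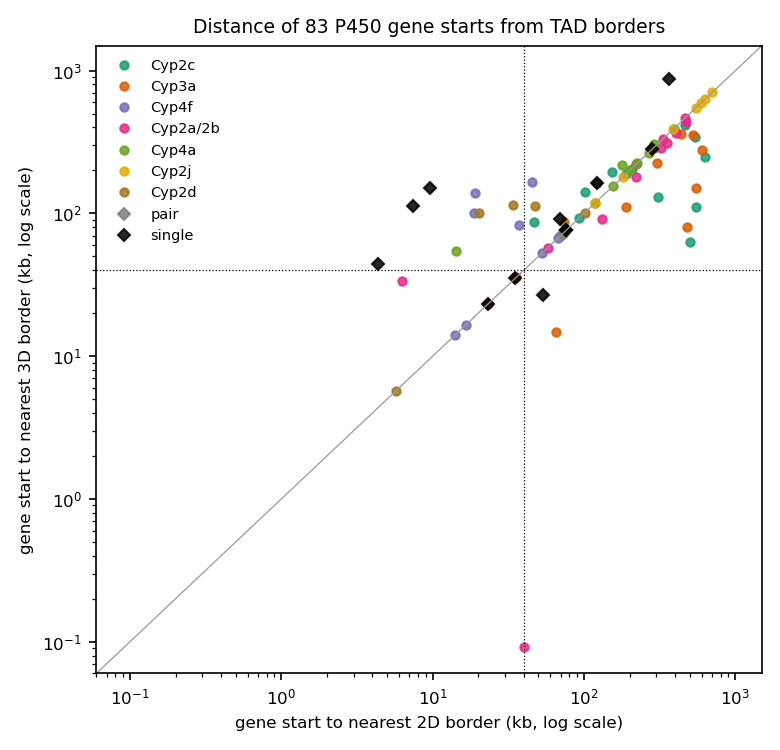
Distance in kb from each of the 83 P450 starts to the nearest 2D border (x axis) and 3D border (y axis), both on log scales; colours are clusters, diamonds the pair and single genes, dotted lines mark 40 kb. Points on the diagonal have the same distance in both lists, and Cyp2f2 lies lowest at 0.0920 kb in 3D. Several Cyp4f genes and single genes lie above the diagonal with a border nearer in 2D. The medians of Cyp3a (460 kb in 2D, 188 kb in 3D) and Cyp2c (298 and 192 kb) go the other way.

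Sites of CTCF, the insulator protein often found at TAD borders, were searched as a sequence motif, not measured. The CTCF core motif, taken as 1 pattern with no mismatch allowed, had 6323 matches on the autosomes. A border without a match can still hold a CTCF site of another sequence. A match lay within 40 kb of 37.5% of all 2D borders, of 37.8% of all 3D borders and of 17.2% of all bin edges. At borders around P450 clusters it was 8 of 21 in 2D (38.1%) and 5 of 21 in 3D (23.8%). At the 13 positions common to both lists it was 2 (15.4%), and at the 16 positions of 1 list only it was 9 (56.2%). Of these 16, the 7 with the other list's border 1 bin away included 6 with a match, and the 9 farther from any border of the other list included 3 (33.3%). Inside the spans, 5 of 9 borders had a match, including the Cyp4a border of 2D at 115120000, which shares its match with the 3D border 1 bin away. No match lay within 40 kb of the 3D borders inside Cyp2c (39400000) and Cyp3a (145360000), or of the borders at 82520000 (Cyp2d) and 32520000 (Cyp4f). The 2 borders of Cyp4f that only 2D has did have one, as did the Cyp2a/2b borders at 25840000, 27120000 and 27160000, of which the last 2 share their matches. Outside the spans, borders of 1 list only with a match also lay beside Cyp3a (146560000, 2D), Cyp2d (82280000, 3D) and Cyp2c (38960000, 2D). The Cyp4f and Cyp2a/2b sites are printed with 8 bases on both sides, with the match in capitals (GRCm38). The Cyp4f sites are at chr17:32635229-32635258 (plus strand, in a UTR of Cyp4f37) and chr17:32905387-32905416 (minus strand, in a UTR of Cyp4f14). Those of Cyp2a/2b are at chr7:25848153-25848182 (plus strand, between genes), chr7:27132748-27132777 (plus strand, in an intron of Cyp2f2) and chr7:27159981-27160010 (plus strand, in an intron of Egln2).
Cyp4f37 site: acagaacgCCAGCAGGGGGCGCtagagggc
Cyp4f14 site: accgagagCCAGCAGGGGGCGCtgtgaaat
Cyp2a/2b left site: cctccacaCCACCAGGTGGCGCtgttagtt
Cyp2f2 site: ttaaactcCCACTAGGTGGCGCtgctggcc
Egln2 site: ccatgtgcCCACCAGGGGGCGCagcgccag

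Relative to the border, with negative values to its left, the Cyp4f37 site lies at -4.76 kb from 32640000 and the Cyp4f14 site at 25.4 kb from 32880000. The left Cyp2a/2b site lies 8.16 kb beyond the border at 25840000, which both lists have. The intronic Cyp2f2 site lies 12.8 kb beyond the 3D border at 27120000, and the Egln2 site overlaps the 2D border at 27160000. A motif match is a description of the sequence and does not show binding in these cells, nor does the lack of a match show that binding is absent.

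Reads from near-identical duplicates are hard to place, so the sequence of the clusters was measured beside their TADs. A 50-base word was called repeated where it occurs again on its chromosome. Repeated words made up 27.9% of the Cyp3a span (8.82% of all bins of chromosome 5), 24.3% of Cyp4a (chromosome 4, 9.69%), 23.0% of Cyp2c (chromosome 19, 5.57%), 20.8% of Cyp2a/2b (chromosome 7, 14.0%), 16.8% of Cyp2d (chromosome 15, 6.51%) and 12.1% of Cyp2j. The Cyp4f span, at 6.05%, was below its chromosome 17 (8.32%). Taken whole, the stretches of Cyp2c and Cyp3a unassigned in 3D were less repeated than the TADs beside them, and in Cyp2d the order differed between the lists. In Cyp2c, the stretch unassigned in 3D had 17.1% and the 3D TAD 22.7%, both above chromosome 19. That stretch includes bins before the first member, with 2.32% and 4.78%. Under the cluster its bins varied, with 44.9% at 39120001, 45.5% at 39240001 and 3.57% at 39280001. The TAD has bins beyond the last member too, with 6.70% and 1.35%. The parts under the cluster alone were not compared. In Cyp3a the whole stretch had 6.96% and the TAD 27.8%. In Cyp4f, the stretch unassigned in 2D had 4.42%, between TADs with 14.3% on its left and 2.25% on its right. In Cyp2d, the TAD had 15.4%, the stretch unassigned in 2D 19.3% and the longer one of 3D 13.6%. GATC sites numbered 103 to 128 per 40 kb bin in the spans, at or above the chromosomes' 98.6 to 104. No span held unknown bases. The part of repeated sequence in the calls was not tested.

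**Figure D4:**
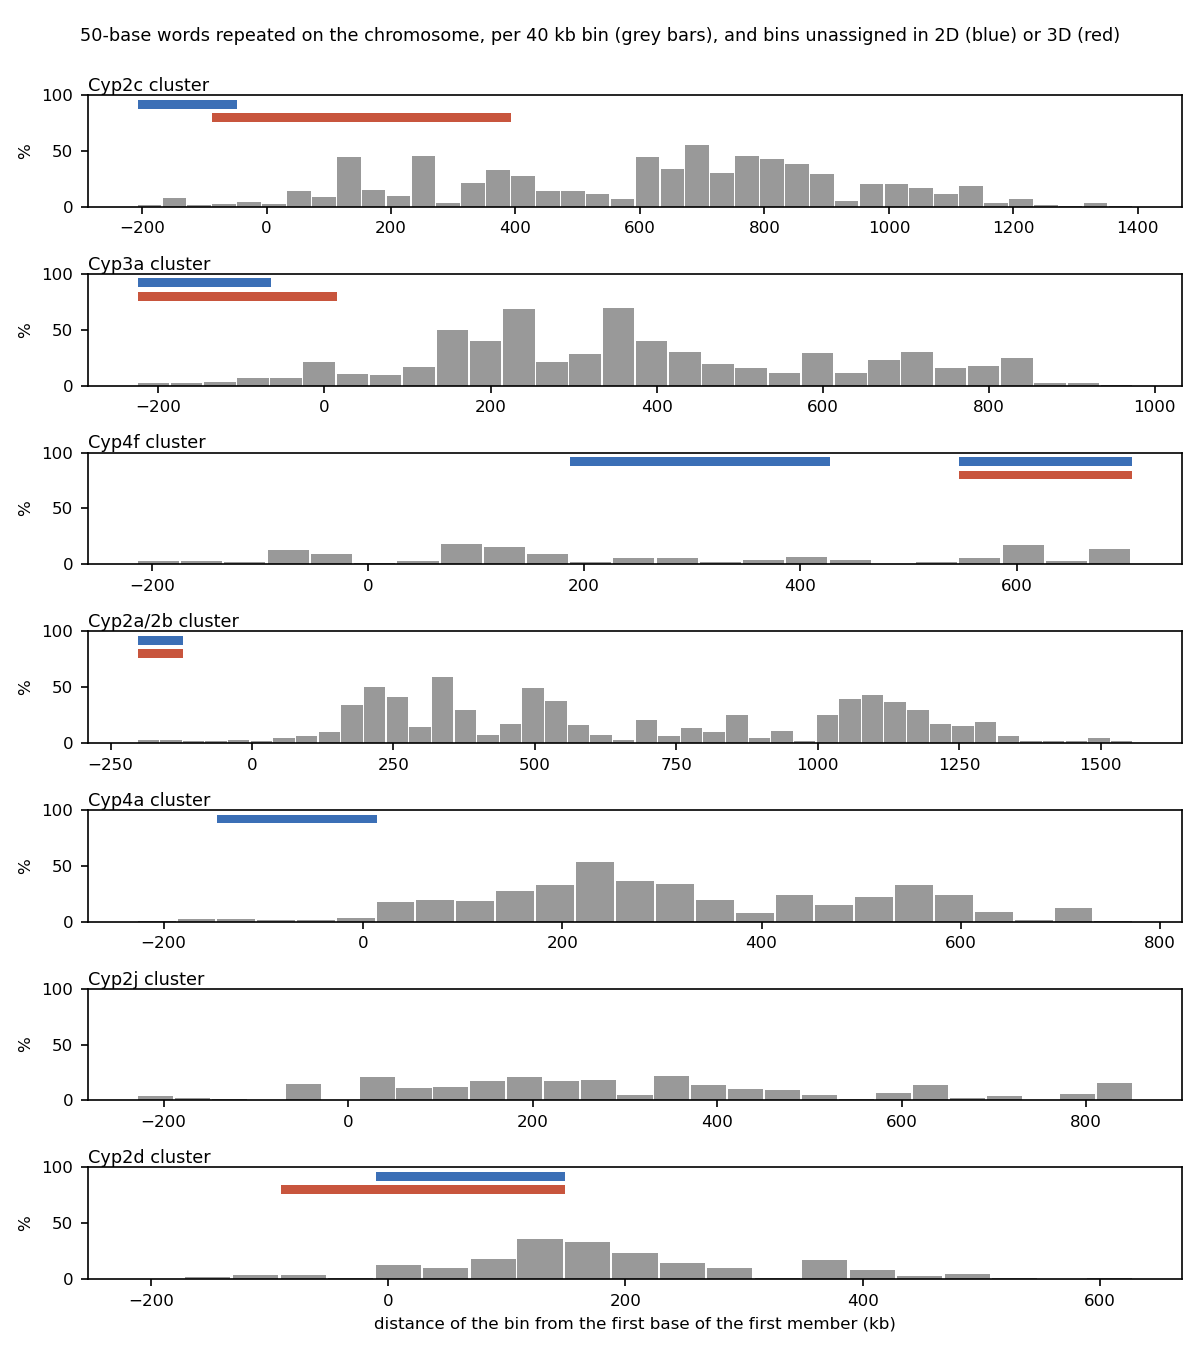
Percent of 50-base words that occur again on the same chromosome (y axis) in each 40 kb bin around the 7 clusters (x axis, distance from the first base of the first member, kb); blue and red lines mark bins unassigned in 2D and 3D. The stretch of Cyp3a unassigned in 3D has 6.96% as a whole, against 27.8% in the TAD beside it, but its last bin, which holds the start of Cyp3a57, reaches 20.7%.

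Among the single genes and the pair, 6 of 14 had a counterpart TAD in both lists, where the share over all genes was 52.0% in 2D and 52.3% in 3D. Genes outside any TAD count here as without one. Of single genes in a TAD, 4 of 5 in 2D and 4 of 10 in 3D had a counterpart, and of the pair 2 of 2 in each list. Over all genes in a TAD it was 10811 of 16081 in 2D and 10878 of 17495 in 3D. Cyp1a1 and Cyp1a2, targets of the aryl hydrocarbon receptor, lay in a TAD of 240 kb with identical ends (chr9:57520001-57760000) and 11 protein-coding starts, 72.1 and 76.3 kb from a border. Cyp2e1, the ethanol-oxidising enzyme, lay in a gene-rich TAD of 680 kb with identical ends (chr7:140160001-140840000) and 25 starts. Cyp2r1, a vitamin D hydroxylase, lay in one of 1840 kb (chr7:114280001-116120000). Cyp1b1 was the only protein-coding start in a TAD of 160 kb (chr17:79680001-79840000). Cyp7a1, the rate-limiting enzyme of bile acid synthesis, lay at the right end of a TAD of 2360 kb in both lists, shifted by 1 bin (chr4:3920001-6280000 in 2D, chr4:3960001-6320000 in 3D). Its start was 4.37 kb from the border in 2D and 44.4 kb in 3D.

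Cyp7b1, an oxysterol hydroxylase, lay in a TAD of 1240 kb in 2D (chr3:17880001-19120000) and of 2880 kb in 3D (chr3:16240001-19120000), the largest around any member. The TADs share their right end and the same number of protein-coding starts, 3. Cyp8b1, which directs synthesis to cholic acid, was unassigned over the same 160 kb in both lists (chr9:121840001-122000000). Cyp2u1, a fatty acid hydroxylase, was unassigned over the same 280 kb (chr3:131280001-131560000).

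The 5 single genes in a TAD in 3D only had 3D TADs of 120 to 480 kb and 2D stretches of 160 to 400 kb. Cyp3a13, a Cyp3a enzyme apart from the cluster, was in a 2D stretch of 400 kb (chr5:137800001-138200000) and a 3D TAD of 360 kb with 14 starts (chr5:137760001-138120000). Cyp2w1 was in a stretch of 160 kb (chr5:139200001-139360000) and a TAD of 280 kb (chr5:139240001-139520000). Cyp4v3, a fatty acid hydroxylase, was in a stretch of 160 kb and a TAD of 120 kb, and Cyp4f18, a leukotriene hydroxylase of neutrophils, in a stretch of 240 kb and a TAD of 480 kb. Cyp2c23, a renal epoxygenase apart from the Cyp2c cluster, was in a stretch of 160 kb (chr19:43960001-44120000) and a TAD of 400 kb (chr19:43720001-44120000). These 5 are 41.7% of the single genes, against 10.5% of all genes. None of the 12 was in a TAD in 2D only, against 3.73% of all genes. Whether single and clustered genes differ in this was not tested, since clustered genes share TADs and are not independent.

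**Figure D5:**
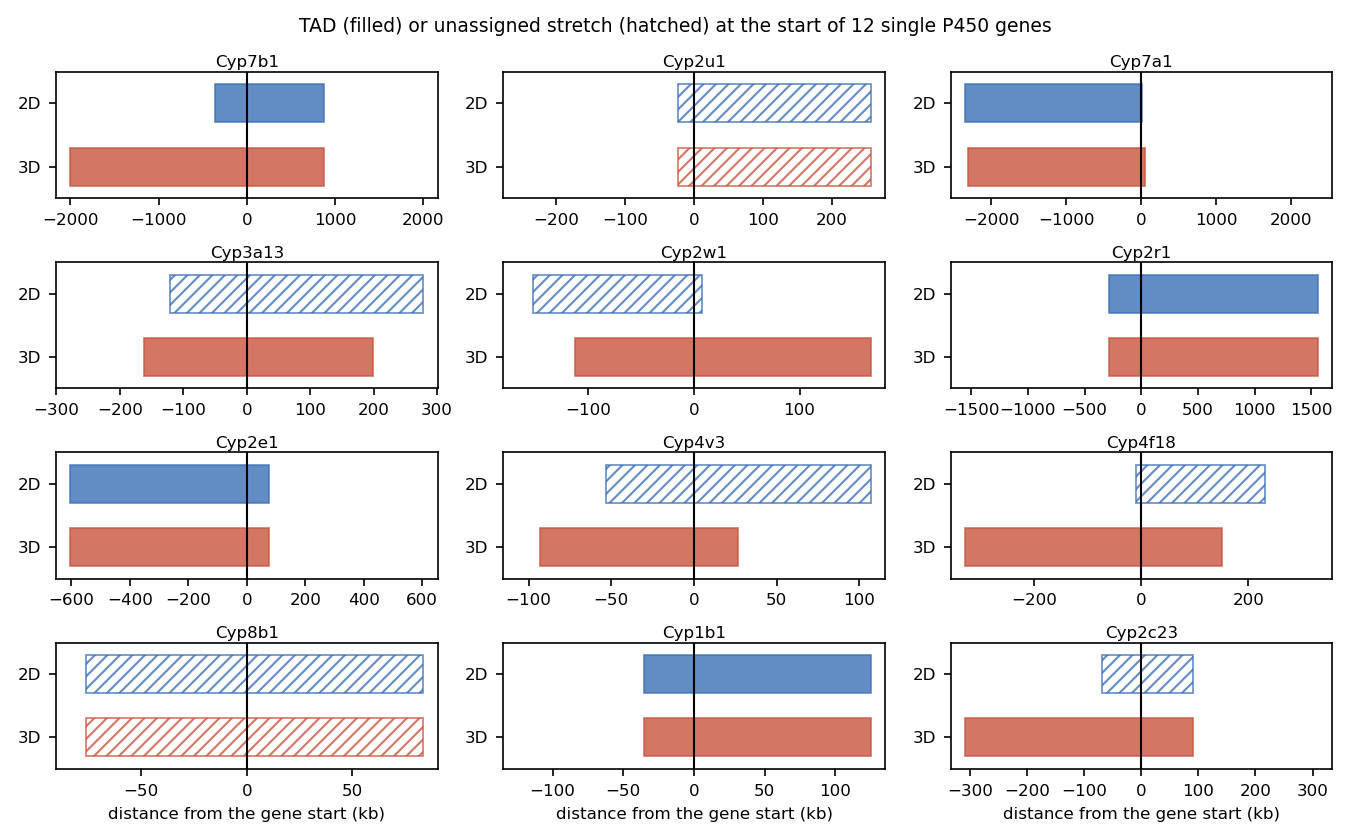
TADs (filled) and unassigned stretches (hatched) at the start of the 12 single P450 genes in the 2D (blue) and 3D (red) lists, with distance from the gene start in kb on the x axis. Cyp3a13, Cyp2w1, Cyp4v3, Cyp4f18 and Cyp2c23 are hatched in 2D and filled in 3D, Cyp2u1 and Cyp8b1 are hatched in both.

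P450 genes outside the naming rule and genes that work with P450s had median TAD sizes near or below that over all genes, 320 kb in both lists. Of the 17 P450 genes with other symbols, 13 starts (76.5%, against 77.3% of all genes) were in a TAD in 2D and 16 (94.1%, against 84.1%) in 3D, with a median TAD of 280 kb (120 to 2000) and 300 kb (120 to 1160). The 3 in a TAD in 3D only (17.6%, 6.19 to 41.0, against 10.5% of all genes) were Cyp20a1, Cyp27a1, the sterol hydroxylase of the acidic bile acid pathway, and Cyp27b1, which activates vitamin D. Cyp24a1, which inactivates vitamin D, was in a TAD of 2000 kb in 2D and 160 kb in 3D. Of the 18 partner and regulator genes, 16 (88.9%) were in a TAD in each list, with medians of 220 and 260 kb, and 8 (44.4%, against 35.7% of all genes) had identical ends, among them Nr1i3 (CAR), Arnt, Cebpa, Fdx1 and Ppara. The TAD of Por, the reductase that supplies electrons to microsomal P450s, measured 200 kb in 2D and 520 kb in 3D. That of Ahr, the aryl hydrocarbon receptor, measured 400 and 720 kb. Nr1i2, the receptor PXR that induces Cyp3a genes, and Cyb5r3 were unassigned in both lists.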

How the data were processed

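The members and gene lists were chosen with earlier results of these data known. Per the study's methods, the authors mapped reads with Bowtie 2 (version 2.2.9) to mm10, required a mapping quality over 30, merged replicates, corrected 40 kb matrices by ICE, equalised contact totals per chromosome between cultures and ran Armatus (gamma 0.8). The deposited values, of another kind than counts, are TAD starts and ends in base pairs. Contact matrices and expression data were not analysed here.

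Positions were compared in Python (3.11.15) with numpy (2.4.6) and scipy (1.17.1), and figures were drawn with matplotlib (3.10.9). Genes came from GENCODE M21, whose genome, GRCm38, is the build mm10 names, and promoters from RefSeq. A border is any distinct TAD start or end. Clusters chain members at most 500 kb apart. Coordinates are 1-based. Coding identity was measured with edlib (1.3.9) by end-to-end alignment of the longest coding sequence per gene, as a share of alignment columns, gaps included. The placement and matching routines were tested on simulated lists and returned the known values. The P450 members named are all clusters, the pair and all single genes; the other P450, partner and regulator genes named are examples from their lists, picked after their values were seen. Alternatives changed the gene position, symbol pattern, counterpart rule, border rule, distance, smallest TAD and chain distance. Since each list merges its replicates, no test between cultures was possible, and the unknown depth allows no interval that needs read counts.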

Additional observations from a re-analysis of the deposited data

How the results depend on the processing

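Of 122 values recomputed under alternatives, 2 reversed, 25 moved beyond the interval of the main value, or by over 1.5 times for counts of TADs and borders, and 95 stayed within these limits, which are wide where few genes were compared; the cause was not tested beyond the construction of each alternative. Requiring identical ends gave 14.5% of P450 genes with a counterpart in 2D and in 3D. It turned the difference between clusters and single genes to -14.9 percentage points in both lists. A reciprocal overlap of 50% gave 78.3% in 2D and 74.7% in 3D (68.6% and 72.6% of all genes). The difference was then 52.2 points in 2D and 28.3 in 3D. These differences count members outside any TAD as without a counterpart. Of members in a TAD in 2D, 4 of 5 single and 29 of 63 clustered genes had one by the main rule, so there the order turned without a change of rule. The share of P450 starts near a border was 12.0% for 2D when TADs under 200 kb were dropped (27.9% of all genes), 41.0% in 2D and 27.7% in 3D within 80 kb (63.8% and 60.4% of all genes), and 8.43% in 2D and 9.64% in 3D at positions where 2 TADs meet (18.5% and 21.6%). With 1 value per TAD, the median size came to 640 kb (2D) and 480 kb (3D), so the large median per gene rests in part on TADs that hold many members. Both values stayed above the 320 kb over all genes, which is a median counted by gene. Counting only positions where 2 TADs meet left 0 borders inside Cyp4a in 2D, 0 inside Cyp2d in each list, 1 inside Cyp4f in 2D as in 3D, 0 inside Cyp3a in 3D and 0 inside Cyp2c in 3D. Widening the spans by 40 kb gave 2 borders for Cyp2a/2b in 2D, 3 in 2D and 2 in 3D for Cyp2d, and 1 for Cyp4a in 3D. With members at most 200 kb apart, which leaves 8 of the 13 Cyp2a/2b genes, or with TADs of at least 200 kb, Cyp2a/2b starts lay in 1 TAD in 2D; the latter also gave 1 in 3D, and 1 for Cyp4f in 2D against 2 in 3D. No paired analysis was possible because each list was called on merged replicates, and for the same reason no replicate could be left out. Borders are placed to 1 bin of 40 kb at best, and a difference of that size between the lists cannot be told from the grid.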
